A study of Homo sapiens with 5 samples.

Results

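THOC6, a subunit of the THO complex, kept at least 10 percentage points more of each of its 10 listed introns after SNW1 siRNA, and in auxin-treated cells with degron-tagged WBP11, each against its own control library. After WBP11 siRNA 0 of its 8 listed introns reached that size, where 9.07% of all introns tested did. In the other measured genes of the set named below, 5 of 32 introns reached it after SNW1 siRNA and 2 of 17 in the degron cells. These are near the 16.6% and 13.8% of all introns tested that did so. The THO complex assembles on nascent RNA during transcription and splicing. With the helicase DDX39B and the adaptor ALYREF it forms the TREX complex, which marks a transcript as ready for export, and the transcript is then passed to the receptor NXF1 for passage through the nuclear pore. The 9 genes examined were THOC1, THOC2, THOC3, THOC5, THOC6 and THOC7 of the THO complex, with ALYREF, DDX39B and NXF1, and every intron listed under these names was taken. They gave 50 introns of 6 genes, out of 34560 introns listed over 3 tables. THOC3, THOC7 and DDX39B had no listed intron and were not analysed here. The genes were chosen by their function and by the retention differences already seen in these same libraries, so the values below describe them and carry no test.

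The 5 libraries were polyA RNA of DLD-1, a human colorectal adenocarcinoma line, all of the labelled background DLD-1 LacZeo and 1 library per group. WBP11, a splicing factor, was lowered with 100 nM siRNA for 72 h, and SNW1, another splicing factor, with the same dose and time of its own siRNA. Both were set against 1 control library whose label gives no treatment and whose table header calls it control RNAi. In a second pair, DLD-1 LacZeo osTIR1 cells, which carry the plant auxin receptor TIR1, received 500 µM auxin for 48 h. In WBP11_Auxin, per the series design, the endogenous WBP11 gene was knocked out and replaced by an auxin-degradable transgene, and Control_Auxin received auxin as well. The degron cells without auxin were not analysed here, so WBP11 loss and a difference between the cell lines cannot be told apart. The labels give both libraries of this pair the same genotype.

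Each value is an intron retention ratio, given in percent: the depth of reads over an intron divided by that depth plus the reads spliced across it. A change of 10 percentage points or more was called, provided that depth plus spliced reads reached 10 in both libraries, and rose and fell mean called changes below. Intervals are 95% intervals for counting error within these libraries, and no difference has a replicate check. Listed introns held between 2987572 and 5527186 spliced reads per library and table. Relative to the total of listed introns, spliced reads of WBP11 in WBP11_RNAi were 6.75% of control (20 against 312 reads before scaling). Those of SNW1 in SNW1_RNAi were 10.2% (31 against 401 reads). In WBP11_Auxin the 1 listed WBP11 intron held 38.0% of control on the same scale (103 against 235 reads). This transcript value does not measure the tagged protein. On the same scale, SNW1 stood at 65.3% of control in WBP11_Auxin (56.5 to 75.5) and at 141% in WBP11_RNAi (125 to 160), each at 1 listed intron. WBP11 stood at 196% in SNW1_RNAi (181 to 212). Whether these levels had a part in the results was not tested. A bulk library does not tell fewer cells with a transcript from less of it in each cell. Of 11 colorectal epithelial markers, 5, 6 and 6 had listed introns in the 3 tables, among them CDH1, CDH17 and KRT18, and no fibroblast or leukocyte marker had one. Genes whose introns stayed under 1% in both libraries are not listed, so an unlisted marker need not be unexpressed. Spliced reads summed over these epithelial markers, without scaling, were 42425 in WBP11_RNAi, against 50118 in Control. They were 85211 in SNW1_RNAi, against 286434 in Control over its own table's introns, and 19312 in WBP11_Auxin, against 29050 in Control_Auxin. The part of this difference in the results was not tested.

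THOC6 lies on chromosome 16, plus strand, between 3024027 and 3027755 (hg38). Its main transcript has 12 introns, 11 of them up to 102 bp long, and 10 were listed, numbers 2 to 10 and 12, all in the coding region. Sequences of 5 of these introns could be read from annotated transcripts that keep them, on GRCh38 in GENCODE release 29, and are shown because all 5 rose after SNW1 siRNA and in the degron cells. Capitals mark the first and last 2 bases of each intron and the first stop codon met when the upstream reading frame runs into the intron. Sequences are 5′ to 3′ on the gene's own strand.

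THOC6 intron 2, chr16:3025824-3025923: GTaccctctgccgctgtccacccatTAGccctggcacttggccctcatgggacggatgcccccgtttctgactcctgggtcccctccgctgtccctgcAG
THOC6 intron 3, chr16:3025989-3026062: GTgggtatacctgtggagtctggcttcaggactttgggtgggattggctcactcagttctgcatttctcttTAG
THOC6 intron 4, chr16:3026167-3026250: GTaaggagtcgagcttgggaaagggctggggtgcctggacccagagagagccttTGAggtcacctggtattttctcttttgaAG
THOC6 intron 5, chr16:3026289-3026364: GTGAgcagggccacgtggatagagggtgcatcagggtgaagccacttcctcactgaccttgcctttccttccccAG
THOC6 intron 6, chr16:3026414-3026515: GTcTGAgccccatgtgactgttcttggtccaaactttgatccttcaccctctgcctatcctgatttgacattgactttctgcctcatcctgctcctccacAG

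All 5 begin with GT and end with AG, as most human introns do, and all 5 hold a stop codon in the reading frame of the preceding exon. It starts at base 26 of intron 2, 72 of intron 3, 55 of intron 4, 2 of intron 5 and 4 of intron 6, and in intron 3 it shares its last 2 bases with the closing AG. The G and C content was 66.0% in intron 2, 53.6% in intron 4 and 59.2% in intron 5, and lower in introns 3 and 6. For contrast, 2 introns of other members that were also readable are shown, chosen after their values were seen: the 94 bp intron of THOC1, which rose in the degron cells, and the last intron of NXF1, which rose after SNW1 siRNA.

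THOC1 intron 14, chr18:224995-225088, minus strand: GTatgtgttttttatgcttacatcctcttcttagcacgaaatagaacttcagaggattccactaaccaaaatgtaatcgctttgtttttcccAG
NXF1 intron 21, chr11:62792515-62792640, minus strand: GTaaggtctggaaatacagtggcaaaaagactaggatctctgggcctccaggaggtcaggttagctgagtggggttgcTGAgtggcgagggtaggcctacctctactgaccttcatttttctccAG

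The THOC1 intron had 36.2% G and C and no stop codon in frame, and the NXF1 intron had 52.4% and a stop at base 79. Lengths of THOC6 introns 4, 6 and 10 are multiples of 3, and the other 7 listed are not. In the 20 bases before the closing AG, the 5 THOC6 introns held between 15 and 17 pyrimidines, against 15 in THOC1 intron 14 and 16 in NXF1 intron 21.

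After WBP11 siRNA, 0 of 25 member introns rose and 0 fell, where 9.07% of all 16068 introns tested rose and 1.69% fell. After SNW1 siRNA, 15 of 42 rose and 0 fell, against 16.6% and 0.359% of 23366 introns. In the degron cells 12 of 27 rose and 0 fell, against 13.8% and 1.37% of 21828 introns. THOC6 supplied 10 of the 15 and 10 of the 12. Without it, 5 of 32 members rose after SNW1 siRNA and 2 of 17 in the degron cells, which is near the share over all introns.

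**Figure D1:**
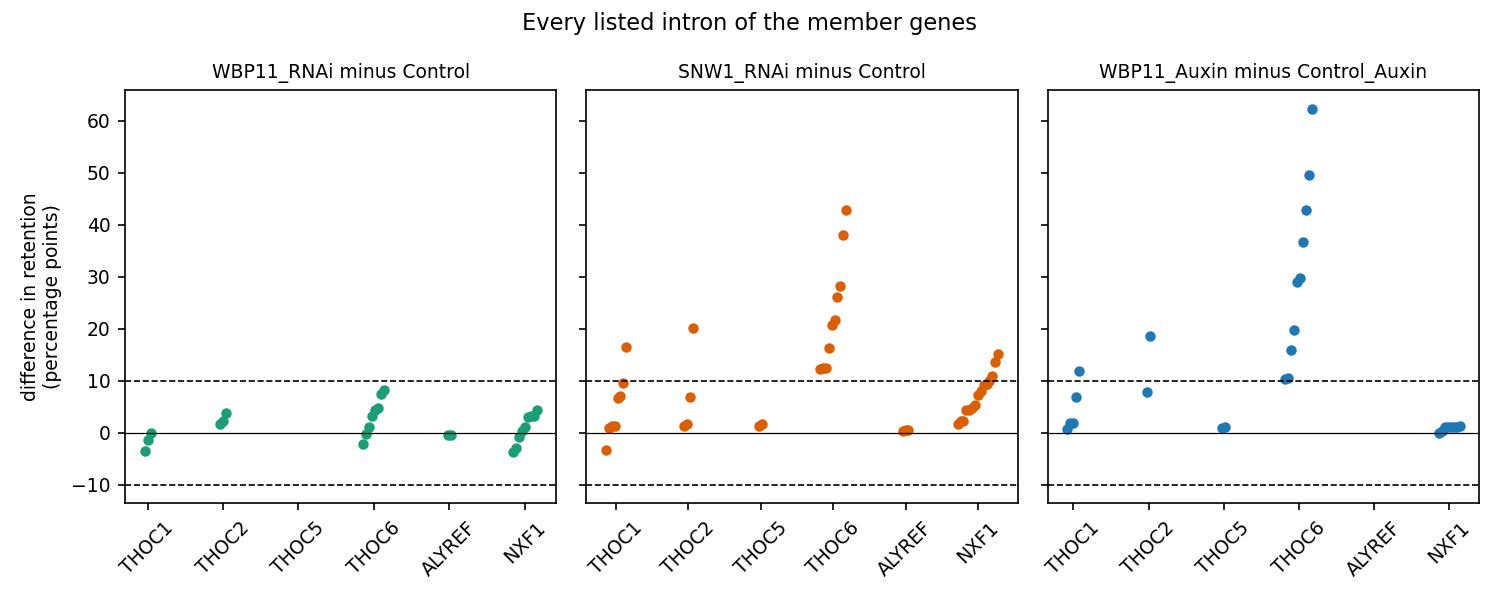
Difference in retention (depleted minus control, percentage points) of every listed intron of the 6 measured genes, 1 point per intron, ordered by value within a gene, for WBP11_RNAi (left), SNW1_RNAi (middle) and WBP11_Auxin (right), 1 library per group. Dashed lines mark 10 points: all 10 THOC6 introns lie above the line in the middle and right panels and none of 8 does on the left.

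The median difference of the member introns was 1.11 points after WBP11 siRNA, 7.05 after SNW1 siRNA and 6.90 in the degron cells, beside 0.756, 2.63 and 1.45 over all introns tested. These medians depended on which introns entered. With warned introns left out, the 12 remaining members had a median of 1.99 points after SNW1 siRNA. With 1 intron per gene, the median was 1.80 points in the degron cells, over 5 genes, 4.21 after SNW1 siRNA and 3.12 after WBP11 siRNA. Retention was above control at 15 of the 25, 41 of the 42 and 26 of the 27 members, and at 59.6%, 91.3% and 72.8% of all introns. The tables list introns that reached 1% in at least 1 of their 2 libraries, so these counts leave out introns spliced more fully in both. An intron under 1% in control was listed only when the depleted library was higher, so it could only count as above control. The reverse held for introns under 1% in the depleted library.

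THOC6 encodes a WD40-repeat subunit of the THO complex. Its intron 2 was retained at 9.64% in WBP11_RNAi and 48.0% in SNW1_RNAi, against 5.21% in Control, and at 52.7% in WBP11_Auxin, against 23.7% in Control_Auxin. The difference was 42.8 points after SNW1 siRNA (31.2 to 53.3) and 29.0 points in the degron cells (14.7 to 41.1). SNW1_RNAi and WBP11_Auxin were high at this intron, Control_Auxin lay between, and the interval of WBP11_RNAi minus Control held 0.

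Intron 3 of THOC6, the shortest at 74 bp, had 14.1% in WBP11_RNAi and 47.4% in SNW1_RNAi, against 9.39% in Control, and 64.8% in WBP11_Auxin, against 21.9% in Control_Auxin. Intron 4 had 15.6% in WBP11_RNAi and 34.3% in SNW1_RNAi, against 8.24% in Control, and 43.0% in WBP11_Auxin, against 13.2% in Control_Auxin. The largest change of any member was at intron 5, a 76 bp intron with the stop codon at its second base. It stood at 13.8% in WBP11_RNAi and 41.0% in SNW1_RNAi, against 12.7% in Control, and at 77.8% in WBP11_Auxin, against 15.6% in Control_Auxin. In the degron pair that is a difference of 62.2 points (52.0 to 69.9), from an intron depth of 151 with 42 spliced reads in WBP11_Auxin, against a depth of 17.0 with 92 spliced reads in Control_Auxin. WBP11_Auxin was the 1 library of the 5 in which the depth over this intron exceeded its spliced reads.

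Retention was lower further along the gene. Intron 6 had 9.22% in WBP11_RNAi and 26.7% in SNW1_RNAi, against 6.02% in Control, and 42.9% in WBP11_Auxin, against 6.21% in Control_Auxin. Introns 7 to 10 lay between 13.6% and 20.4% in SNW1_RNAi, against 1.35% to 4.88% in Control, and between 19.9% and 24.3% in WBP11_Auxin, against 4.53% to 9.51% in Control_Auxin. The last intron, number 12 and 76 bp long, was again higher, at 16.6% in WBP11_RNAi and 30.0% in SNW1_RNAi, against 8.38% in Control, and at 62.9% in WBP11_Auxin, against 13.3% in Control_Auxin.

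**Figure D2:**
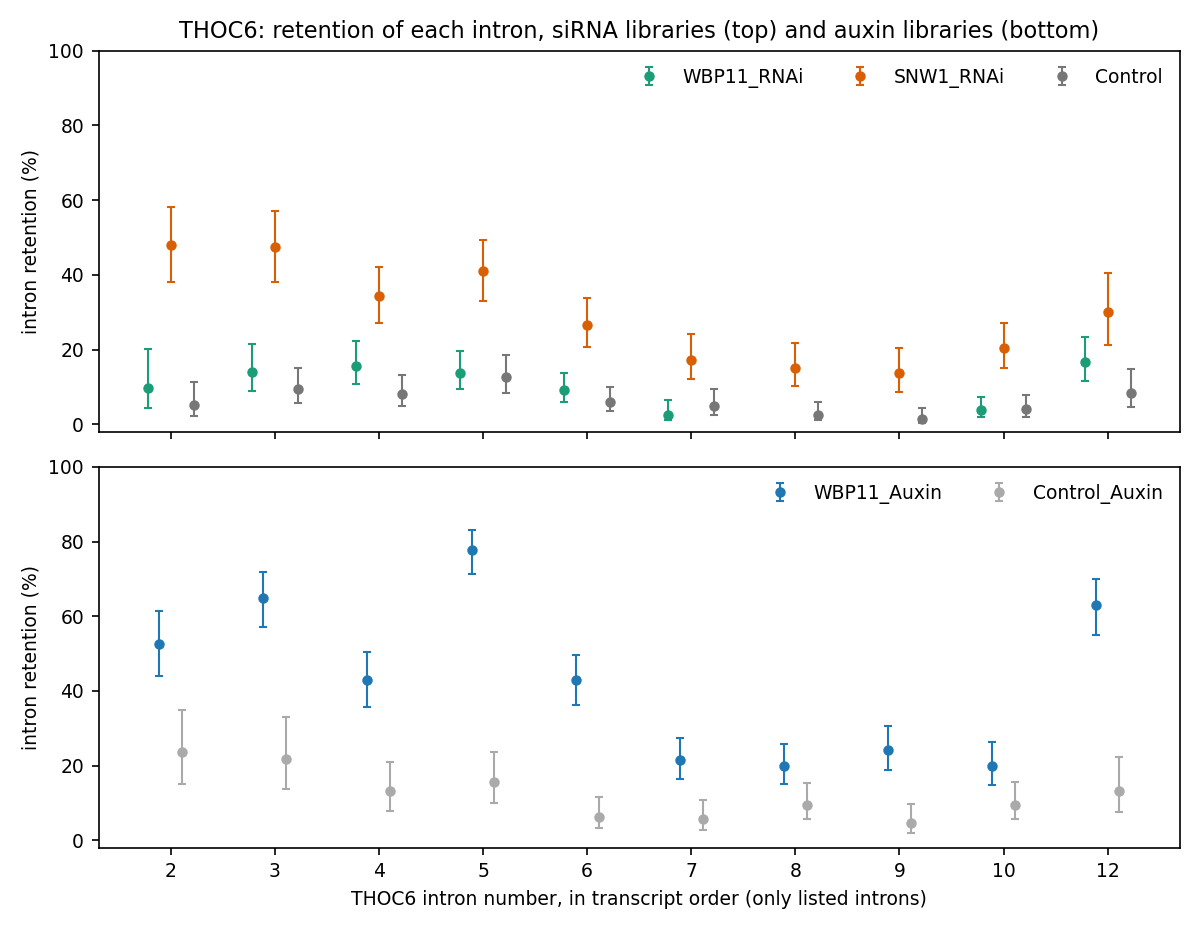
Retention (percent, vertical axis) of the 10 listed THOC6 introns in transcript order, with WBP11_RNAi, SNW1_RNAi and Control at the top and WBP11_Auxin and Control_Auxin below. Points are single libraries and bars 95% Wilson intervals for counting error. Introns 2 to 6 and 12 reach 26.7% to 48.0% in SNW1_RNAi and 42.9% to 77.8% in WBP11_Auxin, and introns 7 to 10 stay at or under 24.3% in every library.

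The stretches used here, introns 2 to 6, 7 to 10 and 12, were drawn after the values were seen. Differences were lower over introns 7 to 10 in both depletions. Control retention was lower there too, at 1.35% to 4.88%, against 5.21% to 12.7% over introns 2 to 6. In Control_Auxin these ranges overlapped, at 4.53% to 9.51% and 6.21% to 23.7%. After WBP11 siRNA the differences ran from 1.11 to 7.38 over introns 2 to 6 and from -2.26 to -0.258 over the 2 listed of introns 7 to 10. After SNW1 siRNA they ran from 20.7 to 42.8 points over introns 2 to 6, from 12.2 to 16.3 over introns 7 to 10, and were 21.6 at intron 12. In the degron cells they ran from 29.0 to 62.2, from 10.4 to 19.7, and were 49.6 points. The 3 introns of 74 to 76 bp, numbers 3, 5 and 12, had the 3 largest differences of the gene in the degron cells. After SNW1 siRNA intron 2, of 100 bp, had the largest. Every interval of the 10 introns lay above 0 in both comparisons, and the lowest bound was 2.47 points, at intron 10 in the degron cells. Over all introns tested, intervals lay above 0 at 7246 of 23366 after SNW1 siRNA and at 4488 of 21828 in the degron cells. Among all introns that rose, they did so at 3216 of 3876 and at 2479 of 3015. The smallest THOC6 differences, 10.4 and 10.5 points at introns 10 and 8 in the degron cells, were just past the 10 point limit. When differences were taken relative to the median of all introns tested, a choice made after seeing the data, 7 of the 10 stayed past it after SNW1 siRNA and 8 in the degron cells.

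After WBP11 siRNA, 8 THOC6 introns were listed and none rose, with differences from -2.26 to 8.25 points and a median of 3.81. Their depth plus spliced reads ran from 55.3 to 225. Intervals above 0 were found at intron 4, with 7.38 points (0.354 to 14.8), and at intron 12, with 8.25 points (0.0462 to 16.1). Of all 16068 introns tested, 2289 had one. The same 2 siRNA libraries can be set against each other without the control. At all 8 introns WBP11_RNAi was lower than SNW1_RNAi by at least 10 points, by 13.3 to 38.4 points, and each interval lay below 0. Over all 22 member introns in both tables, WBP11_RNAi was lower at 10 and higher at 0, where 16.5% of 12761 introns were lower and 2.09% higher. The interval lay below 0 at 3393 of the 12761.

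Short introns were called more often than others. Among introns of 74 to 102 bp, the length range of the listed THOC6 introns, 15.3% rose after WBP11 siRNA, 24.0% after SNW1 siRNA and 35.9% in the degron cells. Of 620 genes with at least 8 introns tested after SNW1 siRNA, THOC6 and LMF2 were the 2 in which every tested intron rose. Of 515 such genes in the degron table, THOC6 was the 1. Ranked by their median difference, THOC6 was number 9 of the 620 and number 2 of the 515, and number 77 of 337 after WBP11 siRNA. These ranks use the differences that the genes were chosen with.

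Coverage warnings touched part of these introns. The deposited tables mark uneven coverage in Control at 7 of the 10 THOC6 introns and in SNW1_RNAi at 1. In the auxin pair the mark stands at 1 intron in WBP11_Auxin and at 3 in Control_Auxin. With every marked intron left out, 2 THOC6 introns remained after SNW1 siRNA and 6 in the degron cells, and all of them were higher. Outside THOC6, every member intron that rose after SNW1 siRNA was marked. The mark stood in SNW1_RNAi at NXF1 introns 21 and 3 and THOC1 intron 13. It stood in Control at NXF1 intron 14 and THOC2 intron 28.

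The controls also differed at THOC6. Control_Auxin was above Control at all 10 introns, by a median of 4.92 points, where 70.6% of 15056 introns lay above. At introns 2 and 3 it was higher by at least 10 points, with 23.7% in Control_Auxin, against 5.21% in Control, at intron 2 (difference 18.4 points, 7.99 to 30.1) and 21.9% in Control_Auxin, against 9.39% in Control, at intron 3 (12.5 points, 2.47 to 24.3). No other member did so, and 5.01% of all introns did. Of the 12 remaining member introns, Control_Auxin was above Control at 5. The 2 controls differ in osTIR1, in auxin and in any control siRNA, since the header calls Control control RNAi. These cannot be told apart.

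Spliced reads of THOC6, summed over its introns and scaled by the sum over every listed intron of the library, came to 97.3% of control in WBP11_RNAi (89.6 to 106), 82.3% in SNW1_RNAi (75.9 to 89.2) and 93.4% in WBP11_Auxin (85.6 to 102). Single introns ranged from 53.2% to 118% in WBP11_RNAi, from 53.4% to 107% in SNW1_RNAi and from 39.6% to 118% in WBP11_Auxin.

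NXF1, the receptor that carries mRNA through the nuclear pore, had 17 of its 21 introns listed, on chromosome 11. After SNW1 siRNA 3 of 15 rose, and all 15 lay above Control, by 1.68 to 15.2 points with a median of 7.16. Over all introns tested, 16.6% rose and 91.3% lay above Control in that comparison, so both counts are near those of introns at large. The median over all introns tested was lower, at 2.63 points. Where Control was under 1%, as at intron 3 with 0.124%, an intron was listed only if SNW1_RNAi reached 1%. For such introns the listing fixed the direction. Intron 21, the last, was retained at 5.11% in WBP11_RNAi and 17.3% in SNW1_RNAi, against 2.07% in Control, and at 4.27% in WBP11_Auxin, against 3.27% in Control_Auxin. The difference after SNW1 siRNA was 15.2 points (9.02 to 21.8), and SNW1_RNAi alone stood out among the 5 libraries at this intron. WBP11_RNAi was lower than SNW1_RNAi there by 12.1 points (5.70 to 19.0).

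Introns 14 and 3 of NXF1 rose too, and like intron 21 each carried a coverage warning in 1 of its 2 libraries. Intron 14 (615 bp) had 21.4% in SNW1_RNAi, against 7.82% in Control, a difference of 13.6 points (5.14 to 22.8). Intron 3 (219 bp) had 3.42% in WBP11_RNAi and 11.0% in SNW1_RNAi, against 0.124% in Control, and 10.9 points separated the SNW1 value from control (4.50 to 20.7). The Control ratio came with a deposited depth of 0 over 119 spliced reads, and its interval reached 3.36%. Intervals lay above 0 at 12 of the 15, and at 7246 of all 23366 introns tested after SNW1 siRNA. Intron 6 was just under the limit with 9.87 points (4.47 to 16.1).

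In the degron cells none of 8 NXF1 introns rose, and the differences ran from -0.102 to 1.26 points, on depth plus spliced reads of 167 to 633. After WBP11 siRNA none of 9 rose, with differences from -3.79 to 4.38 points. No NXF1 interval of the auxin pair lay above 0. Depth plus spliced reads in the siRNA comparisons ran from 65.4 to 212. Of the introns measured in both SNW1_RNAi and WBP11_Auxin, introns 5, 6, 13, 15, 16 and 21, each had the larger difference after SNW1 siRNA.

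**Figure D3:**
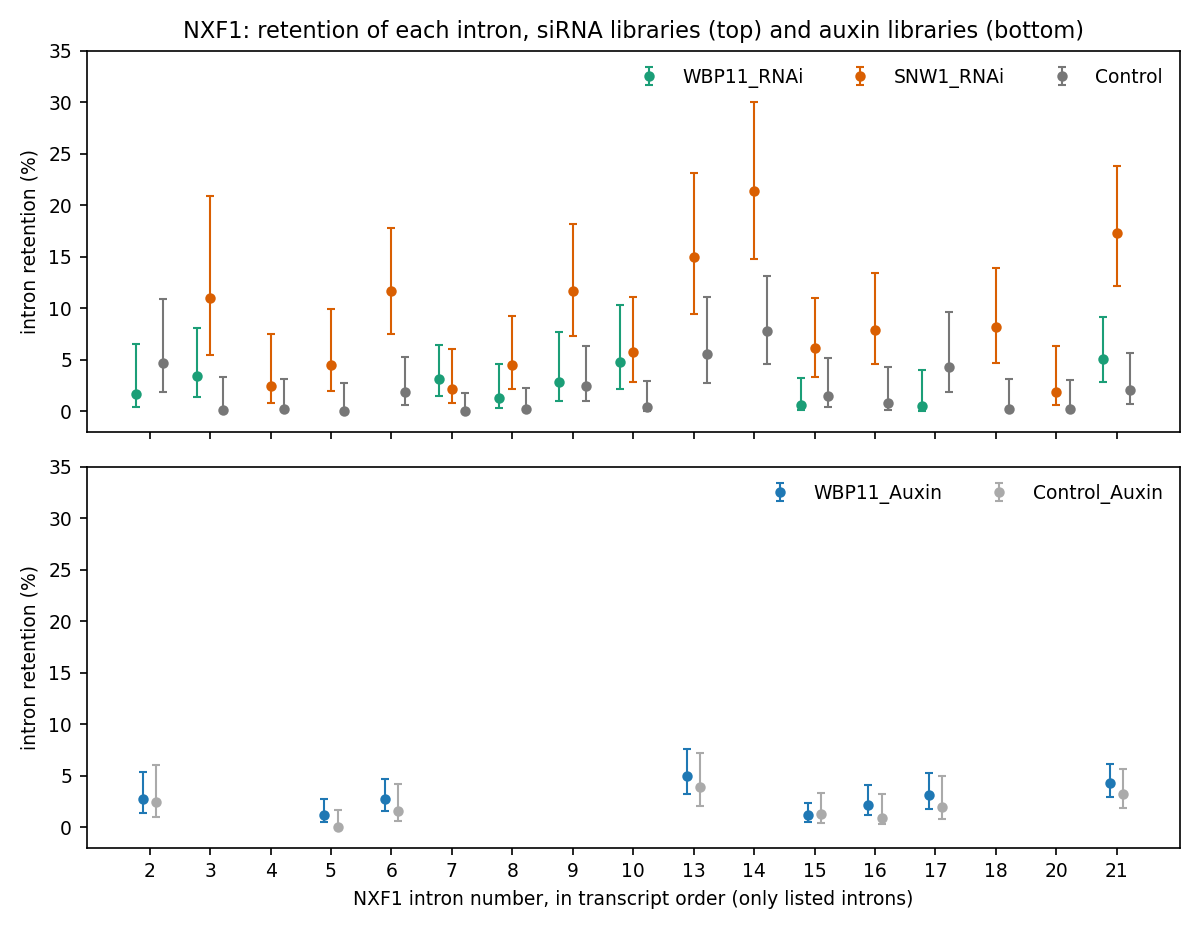
Retention (percent, vertical axis) of the 17 listed NXF1 introns in transcript order, with WBP11_RNAi, SNW1_RNAi and Control at the top and WBP11_Auxin and Control_Auxin below. Points are single libraries and bars 95% Wilson intervals. SNW1_RNAi reaches 21.4% and both auxin libraries stay at or under 4.94%.

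THOC1, a core THO subunit, had 11 of 20 introns listed, on chromosome 18. Its 197 bp intron 13 was retained in every library, at 24.6% in WBP11_RNAi and 42.4% in SNW1_RNAi, against 26.0% in Control, and at 34.3% in WBP11_Auxin, against 27.4% in Control_Auxin. It rose after SNW1 siRNA by 16.4 points (3.49 to 28.4). The neighbouring 94 bp intron 14 had 3.45% in WBP11_RNAi and 10.4% in SNW1_RNAi, against 3.48% in Control, and 15.9% in WBP11_Auxin, against 4.01% in Control_Auxin. It rose in the degron cells by 11.8 points (6.24 to 17.6), and its difference after SNW1 siRNA was 6.95 points (0.194 to 14.2).

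The 93 bp intron 2 of THOC1 was just under the limit after SNW1 siRNA, with 9.61% in SNW1_RNAi, against 0% in Control over 108 spliced reads, which allows up to 2.78% (difference 9.61 points, 3.99 to 17.2). Intron 19 was the 1 member intron with an interval below 0, at 0.755% in SNW1_RNAi, against 4.13% in Control (difference -3.38 points, -7.73 to -0.0673). WBP11_RNAi had 0.681% at the same intron.

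THOC2, the large scaffold subunit of THO, had 5 of 38 introns listed, on the X chromosome. Intron 35, at 82 bp the shortest listed, had 3.87% in WBP11_RNAi and 6.80% in SNW1_RNAi, against 0% in Control over 180 spliced reads, which allows up to 1.67%, and 19.2% in WBP11_Auxin, against 0.766% in Control_Auxin. The degron difference was 18.5 points (12.9 to 24.7). The differences of 3.87 points (0.846 to 8.67) and 6.80 points (3.20 to 11.7) after the siRNAs stayed under the limit, with intervals above 0. Intron 28 (503 bp) rose after SNW1 siRNA, with 31.0% in SNW1_RNAi, against 10.9% in Control (difference 20.1 points, 8.76 to 31.8).

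A long THOC2 intron stayed under the limit in every comparison. Intron 22, of 3719 bp, had 2.39% in WBP11_RNAi and 1.81% in SNW1_RNAi, against 0.172% in Control, and 7.91% in WBP11_Auxin, against 0.0633% in Control_Auxin, where the difference was 7.84 points (2.49 to 14.6). Both control ratios came with a deposited depth of 0, and their intervals reached 3.50% in Control and 3.82% in Control_Auxin.

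THOC5, a metazoan THO subunit, had 4 of 19 introns listed, between 724 and 4738 bp long, and none was called. The 2 listed after SNW1 siRNA differed by 1.34 and 1.62 points and the 2 in the degron table by 0.896 and 1.12 points. Of its listed introns, 2 overlap another annotated gene, AC005529.1.

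ALYREF, the adaptor that links THO-bound RNA to NXF1, was spliced nearly completely in each siRNA library. Its 3 listed introns, of 95, 101 and 598 bp, stood at 1.50%, 1.71% and 1.51% in SNW1_RNAi, against 1.02%, 1.32% and 0.993% in Control, and the first 2 stood at 0.535% and 0.866% in WBP11_RNAi. No difference was over 0.522 points, on depth plus spliced reads of 494 to 1679. The 95 and 101 bp introns of ALYREF lie in the length range of the THOC6 introns and were not called.

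Spliced reads of ALYREF were higher after both siRNAs. They came to 2720 in WBP11_RNAi, against 1206 in Control, over 2 introns, which is 238% of control (222 to 254) relative to the total of listed introns. SNW1_RNAi had 4301, against 1819 in Control, over 3 introns, or 313% (297 to 331). Single introns lay between 223% and 259% in WBP11_RNAi and between 305% and 328% in SNW1_RNAi. They belong to the same gene in the same libraries, so they are not independent measurements. Both siRNA values were taken against the same Control library, so a low ALYREF count in Control would raise both. Whether it did was not tested. ALYREF had no listed intron in the auxin table.

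Spliced reads of NXF1 were at 160% of control in WBP11_Auxin (151 to 170, 3489 reads against 1890), with single introns from 141% to 182%. They were at 100% in WBP11_RNAi (93.0 to 109) and 104% in SNW1_RNAi (97.4 to 110). The NXF1 value thus stood above its control in the degron pair, where no NXF1 intron was called. THOC2 stood at 90.3% in WBP11_RNAi (77.8 to 105), 113% in SNW1_RNAi (99.9 to 129) and 73.6% in WBP11_Auxin (61.9 to 87.6). THOC1 stood at 111% in WBP11_RNAi (353 reads against 336), 121% in SNW1_RNAi (109 to 134) and 90.8% in WBP11_Auxin (82.7 to 99.6), and THOC5 had 139% in SNW1_RNAi (119 to 163) and 120% in WBP11_Auxin (103 to 140).

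**Figure D4:**
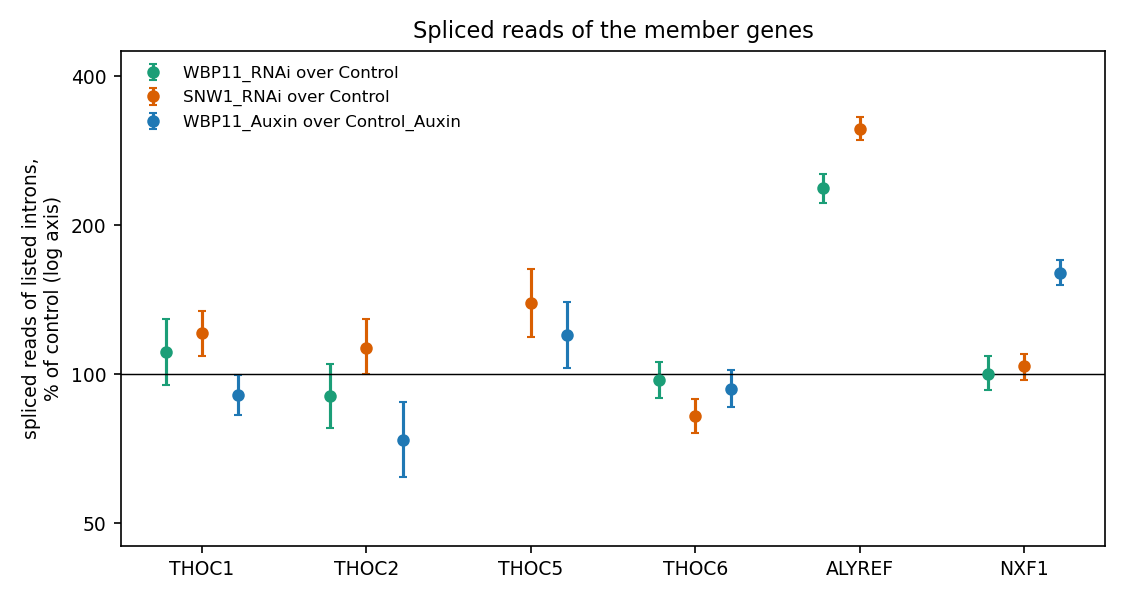
Spliced reads of each gene's listed introns as a percentage of control on a log axis, relative to the total of listed introns, for WBP11_RNAi, SNW1_RNAi and WBP11_Auxin. Points are single library pairs and bars exact binomial 95% intervals for counting error. ALYREF stands at 238% and 313% after the siRNAs and NXF1 at 160% in the degron cells.

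Other genes of the export route were taken as a list of 72 adaptors, cap-binding, exon junction and nuclear pore proteins. After WBP11 siRNA 3 of 106 introns of 43 measured genes rose and 0 fell, or 2.83%, below the 9.07% of all introns. The 3 were in MCM3AP, the scaffold of the TREX-2 complex, with 40.9% in WBP11_RNAi, against 18.3% in Control, at 1 intron and 23.9% in WBP11_RNAi, against 4.48% in Control, at another, and in NCBP3, a cap-binding protein, with 92.3% in WBP11_RNAi, against 77.5% in Control. After SNW1 siRNA 11 of 169 introns of 51 genes rose and 0 fell, or 6.51%, below the 16.6% of all introns. The largest were 2 introns of AAAS, a nuclear pore protein, with 40.2% in SNW1_RNAi, against 8.92% in Control, and 28.6% in SNW1_RNAi, against 2.21% in Control. NUP85, a scaffold nucleoporin, followed with 42.3% in SNW1_RNAi, against 20.4% in Control.

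In the degron cells 12 of 152 listed introns of 47 genes rose, or 7.89%, below the 13.8% of all introns, and 1 fell, where 1.37% of all introns did. The 72 bp intron of XPO1, the export receptor also called CRM1, stood at 62.6% in WBP11_Auxin, against 2.52% in Control_Auxin (difference 60.1 points, 56.5 to 63.3). ZC3H3 at a 76 bp intron had 56.1% in WBP11_Auxin, against 11.3% in Control_Auxin. NUP160, a scaffold nucleoporin, had 44.8% in WBP11_Auxin at a 77 bp intron, against 1.46% in Control_Auxin. ZC3H18 fell at a 1078 bp intron, with 26.7% in WBP11_Auxin, against 37.2% in Control_Auxin (difference -10.5 points, -20.9 to -0.0873). The introns of NCBP3, NUP85 and NUP160 overlap annotated exons. The list median was 0.0449 points after WBP11 siRNA, 1.38 after SNW1 siRNA and 1.08 in the degron cells, each under the median of all introns given above.

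Among the members listed in all 3 comparisons, intron 12 of THOC6 had the highest minimum difference over the comparisons, 8.25 points. The introns whose 5 retention ratios were nearest to its own, by Euclidean distance over 8593 introns of other genes, included introns of RFX5 and SBF1, at distances of 6.30 and 7.99 points. RFX5, a transcription factor of MHC class II genes, had 13.2% in WBP11_RNAi, 30.0% in SNW1_RNAi and 7.14% in Control, with 60.3% in WBP11_Auxin and 8.86% in Control_Auxin, at a 238 bp intron. SBF1 had 23.4% in WBP11_RNAi, 33.7% in SNW1_RNAi and 7.67% in Control, with 60.9% in WBP11_Auxin and 13.2% in Control_Auxin, at a 77 bp intron.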

How the data were processed

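PolyA RNA of 5 DLD-1 libraries was sequenced, per the labels. The authors deposited 3 tables, each an IRFinder comparison of 1 depleted library with 1 control on STAR genome alignments to hg38, per the file headers. RSEM and bedtools also appear, per the submitters' processing notes, with no role. For IRFinder and STAR, versions were not given in the sources used. The retention ratio is a fraction as deposited, the intron depth a deposited coverage signal averaged over measured bases, and the spliced reads a deposited count at the larger end, none scaled between libraries. Reads of overlapping exons can count as retention, and a warning marks uneven coverage. All introns listed had no warning in at least 1 library. The Control values were equal in both siRNA tables at all 13412 shared introns (tolerance 0.001 in depth), so Control was used as 1 library.

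From these, differences with Newcombe 95% intervals, Wilson intervals for single ratios and exact binomial intervals for spliced reads were computed (Python 3.11.15, scipy 1.17.1), taking depth plus spliced reads for n. This n had a median that lay between 95.5 and 120 over the 6 library columns. Reads are not independent molecules, so intervals cover counting error only, and no p-value was computed. The calling step was tested on simulated data. Intron numbers, coding position and sequences come from GENCODE release 29, using a principal transcript per gene. Names of 9, 19 and 24 introns' genes had no match. The members, gene lists and limits were chosen with earlier results of these data known. Named are all members, each intron called at least once, up to 3 rises and 1 fall of the export list per comparison, and the 3 introns nearest to the lead intron, of which 1 is not reported here. The introns shown for contrast and the stretches of THOC6 were chosen after their values were seen. Alternatives covered depth minimums, other limits, exact splicing, warned and exon-overlapping introns, 1 intron per gene, centring and scaling. The last 2, and all those of the direct WBP11_RNAi and SNW1_RNAi comparison, were added after seeing the data.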

Additional observations from a re-analysis of the deposited data

How the results depend on the processing

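Of 118 repeats of the main counts, medians and percentages under other settings, 98 stayed within their limits (counts and medians within 1.5 times, percentages within their intervals) and 20 moved. Part of the 98 could not move. Every member intron had at least 55.3 in depth plus spliced reads, and none was marked as overlapping annotated exons. The other depth minimums and the removal of exon-overlapping introns therefore kept the same member introns, and those repeats say nothing about robustness. With a limit of 5 points, 2 of 25 member introns were higher after WBP11 siRNA and 25 of 42 after SNW1 siRNA. Over all introns tested, the difference was under 5 points in either direction at 12401 of 16068 and at 15607 of 23366. The remaining introns mix rises with falls. The share of all introns higher by 5 points is not given here, so the member counts have no like background. With 20 points, member introns higher numbered 7 of 42 after SNW1 siRNA and 6 of 27 in the degron cells. Those of the export list numbered 1 of 106, 3 of 169 and 4 of 152 in the 3 comparisons. Members lower in WBP11_RNAi than in SNW1_RNAi numbered 3 of 22. The share of all introns at 20 points is not given here, so these counts stand without a background. With any warned intron left out, 12 members remained after SNW1 siRNA and 2 were higher, both in THOC6. The median difference of the members was then 1.99 points after SNW1 siRNA and 10.5 in the degron cells. With 1 intron per gene, it was 3.12 points after WBP11 siRNA, 4.21 after SNW1 siRNA and 1.80 in the degron cells, and centred on all introns it was 0.350 after WBP11 siRNA and 4.42 after SNW1 siRNA. With 1 intron per gene, 2 were higher after SNW1 siRNA and 2 in the degron cells, over 6 and 5 genes, since THOC6 then counts once. Relative to the median intron, ALYREF stood at 292% of control in SNW1_RNAi, and NXF1 at 96.7%, on the other side of 100% from its 104% as reported, whose interval held 100%. No called member difference changed sign when only reads spliced exactly at both ends were counted. No paired analysis was possible because each group has 1 library, and for the same reason no library could be left out. Depth limits single introns: THOC6 introns had 55.3 to 225 observations after WBP11 siRNA, and 6 of the 8 intervals there held 0.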

Other observations

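Introns of the genes next to THOC6, within 25 kb on chromosome 16, gave 6 tested introns after each siRNA and 5 in the degron cells. None of the 6 rose after WBP11 siRNA or after SNW1 siRNA, and 2 of the 5 rose in the degron cells. Over all introns tested, 9.07%, 16.6% and 13.8% rose in these 3 comparisons, and so few neighbour introns cannot be told apart from those shares. TNFRSF12A, a cytokine receptor gene, had 13.5% at its 81 bp intron in WBP11_Auxin, against 2.95% in Control_Auxin (difference 10.6 points, 8.81 to 12.3). After SNW1 siRNA the same intron had 6.17%, against 2.10% in Control, a difference of 4.08 points (2.70 to 5.62). BICDL2 had 81.5% at a 449 bp intron in WBP11_Auxin, against 24.2% in Control_Auxin, and its 115 bp intron had 6.06% in WBP11_Auxin, against 0% in Control_Auxin, with an interval that held 0 (-0.448 to 19.6).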
